A study of Mus musculus with 6 samples.

Results

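Aminoacyl-tRNA synthetases were followed in 6 cultures of mouse CD4 T cells, 2 for each of 3 plate coatings. Members were genes of probe sets with exactly 1 symbol in the platform annotation whose symbol follows the pattern of the family (a letter for the amino acid, then "ars", with Eprs, Farsa and Farsb included), each represented by its probe set of highest mean log2 signal over the 6 arrays. The rule found 33 genes with 58 probe sets among 17097 genes tested. Of these, 17 encode cytosolic enzymes and 15, with symbols ending in 2, mitochondrial ones. Tarsl2 also ends in 2, but its product is a paralog of the cytosolic threonyl enzyme, so it is described apart from both classes. Gars and Kars, counted as cytosolic, each make both the cytosolic and the mitochondrial enzyme. The genes Cars, Dars, Tars and Yars2 were not analysed here.

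A synthetase joins an amino acid to its own tRNA, the step at which the genetic code is read, and each amino acid has its own enzyme. In the cytosol several of these enzymes are held together in the multisynthetase complex, while others act alone. Mitochondria translate their few own messages with a separate set of enzymes, encoded in the nucleus and imported. T cells enlarge and raise protein synthesis after activation, and many cytosolic synthetase genes are known targets of the transcription factor ATF4, which responds to lack of amino acids.

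T cells came from female C57BL/6 mice, were selected for CD4 after removal of cells carrying CD25, and all were cultured for 4 days with TGF-beta (0.36 ng/ml) and IL-2 (10 ng/ml). Labels give the source as spleen in one field and as spleen with lymph nodes in another, and give no age. Plates of the first group carried antibody to CD3 at 2 µg/ml, which engages the T cell receptor, with control IgG (anti-CD3 wells). The second group had in addition the costimulatory ligand B7-2, fused to Fc, at 3 µg/ml, with control IgG (B7-2 wells), and the third had anti-CD3, B7-2 and the B7-related protein BTNL2, fused to Fc, at 11 µg/ml (BTNL2 wells). No label says that the duplicate cultures came from different animals, so the spread behind the p-values is that of these cultures and may be technical. Precision is limited by having 2 arrays a group.

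Values are RMA intensities of a probe set on a linear scale. Levels of different genes are not compared, because each probe set has its own response. Arrays of a group correlated at 0.997 to 0.998 across genes and arrays of different groups at 0.974 to 0.987. The 8 measured CD4 T cell markers were present, with a summed intensity of 24720 to 25217 in the anti-CD3 wells. With B7-2 the sum was 20321 to 20640, and with BTNL2 20407 to 20426. Against anti-CD3, 3 of the 8 fell and 0 rose with B7-2. In the BTNL2 wells 5 were lower and 1 higher than with anti-CD3, beside 16.2% and 14.2% of all genes. B cell markers (7 measured) summed to 717 to 780.05 in the anti-CD3 wells, 377 to 381 in the B7-2 wells and 692 to 886 in the BTNL2 wells, and 8 measured CD8 T and NK cell markers to 3556 to 3673, 3093 to 3108 and 6093 to 6823, most of it Nkg7. Against anti-CD3, 5 of the 7 B cell markers and 4 of the 8 CD8 and NK markers fell with B7-2. Against B7-2, 4 of 7 and 6 of 8 rose with BTNL2. Of all genes, 13.3% fell in the first of these comparisons and 9.52% rose in the second. Myeloid markers (8 measured) summed to 146 to 241 and erythroid markers (3 measured) to 34.6 to 45.6. Single markers moved more than these sums. Mean intensities with anti-CD3, B7-2 and BTNL2 were 311, 113 and 955 for Cd8a, and 139, 37.4 and 210.1 for Klrd1. They were 19.4, 18.1 and 1164 for Eomes, and 130.4, 96.6 and 332 for Ms4a1. No other of the 7 B cell markers had a log2 change above 0 with BTNL2 against anti-CD3, and 3 were called lower. Pax5 and Ncr1 stayed below an intensity of 12.4, under which 40% of probe sets lie, while Cd79a, Cd79b and Cd22 were above it in every group. The part of these cells in the values of the synthetases was not tested. In RNA of whole cultures, fewer cells of a type and less RNA per cell cannot be told apart.

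**Figure D1:**
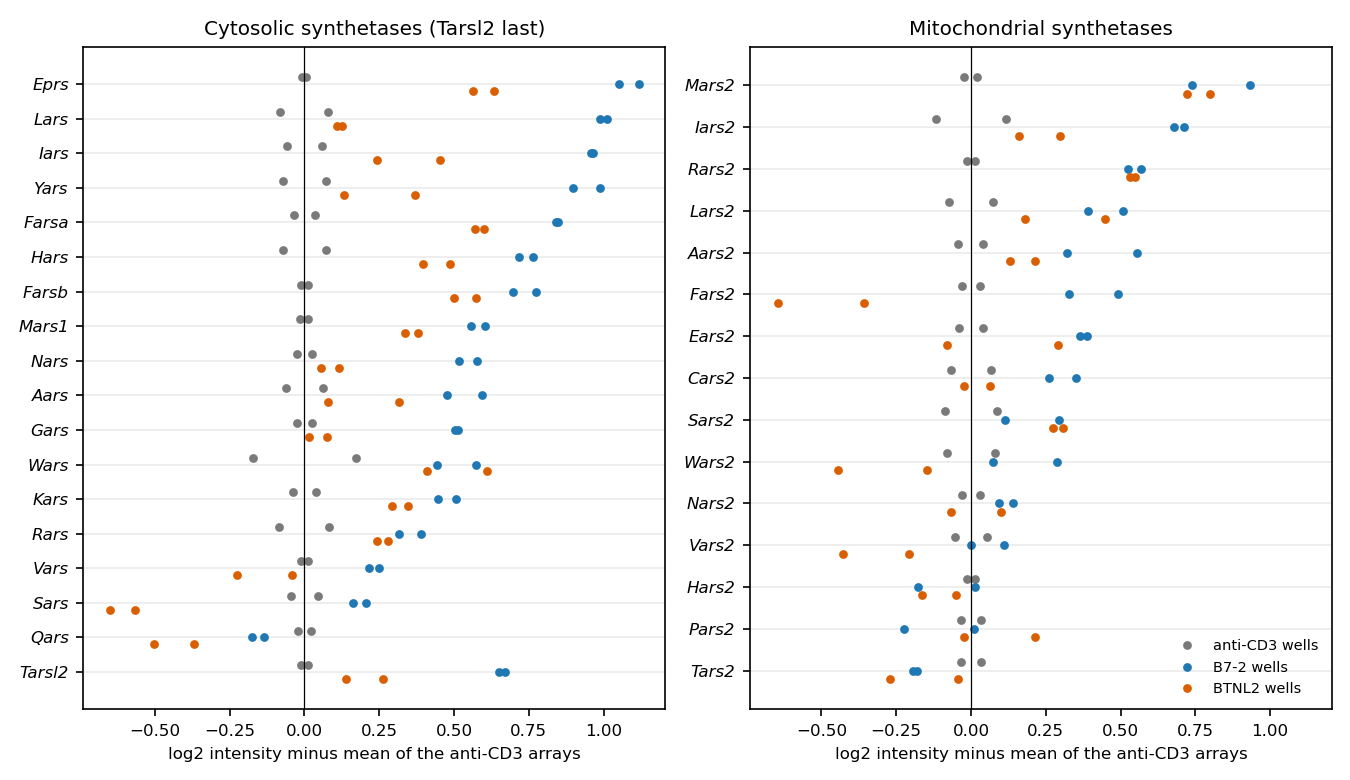
Log2 intensity of each synthetase gene on each of the 6 arrays, minus the mean of that gene on the 2 anti-CD3 arrays (points: arrays; grey, anti-CD3 wells; blue, B7-2 wells; orange, BTNL2 wells; genes ordered by their change with B7-2). For 16 of 17 cytosolic genes both B7-2 arrays lie above both anti-CD3 arrays. For 16 of 17 both BTNL2 arrays lie below both B7-2 arrays, while the groups of mitochondrial genes overlap more often. The share of all genes that separate in these ways was not counted.

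The first comparison asks what B7-2 added to anti-CD3 alone. Most cytosolic synthetase genes rose. Of 17, 14 rose and 0 fell at a limma adjusted p under 0.05, with a median log2 change of 0.55, and at an unadjusted p under 0.05 the counts were 15 and 0. In this comparison 24.5% of all 17097 genes were called, 11.2% higher and 13.3% lower, with a median of -0.00484. Of the 15 mitochondrial genes, 6 rose and 0 fell (8 and 0 at an unadjusted p under 0.05), with a median of 0.31. Whether the classes differ was not tested, because their genes are not replicates. Mitochondrial probe sets were also dimmer, at the 48.5 to 81.5 percentile of genes by mean log2 signal, against 77.3 to 98.2 for cytosolic ones. The part of this in the counts was not tested.

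Within the multisynthetase complex, 6 of 7 enzyme genes rose. Eprs, which encodes the joint enzyme for glutamate and proline, read 521 and 516 in the anti-CD3 wells, 1127 and 1075 in the B7-2 wells and 766 and 805 in the BTNL2 wells. It rose 2.12-fold with B7-2 (log2 change 1.08 ± 0.09, SE, adjusted p = 0.000445), and the 3 groups did not overlap. Of its 4 probe sets, another bright one rose alike (log2 change 1.17), while a further bright one rose less (0.59, limma adjusted p = 0.01 over all probe sets). The latter was not called with BTNL2 against B7-2 (-0.33, adjusted p = 0.0948) or against anti-CD3 (0.26, adjusted p = 0.145). Lars, the leucyl enzyme gene, read 760.35 and 850.13 in the anti-CD3 wells, 1593 and 1620.49 in the B7-2 wells and 867 and 876 in the BTNL2 wells. It rose 1.999-fold (log2 change 1.00 ± 0.09, adjusted p = 0.000684). Iars, for isoleucine, read 895 and 969.88, then 1821 and 1811, then 1103 and 1275 in the same order of groups. It rose 1.95-fold (log2 change 0.96 ± 0.10, adjusted p = 0.00107). The B7-2 wells were the highest of the groups for each of these genes.

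The other members of the complex moved less. Mars1, for methionine, rose 1.495-fold (log2 change 0.58 ± 0.08, adjusted p = 0.00317) and Rars, for arginine, 1.28-fold (log2 change 0.35 ± 0.10, adjusted p = 0.0356). Kars, for lysine in both compartments, read 1396 and 1475 in the anti-CD3 wells, 2039 and 1957 in the B7-2 wells and 1759.64 and 1826 in the BTNL2 wells, a rise of 1.39-fold with B7-2 (adjusted p = 0.00786). Qars, for glutamine, went the other way: it read 3799.75 and 3685 without B7-2 and 3315 and 3407 with it (log2 change -0.16 ± 0.09, adjusted p = 0.283), without overlap but not past the test. When the prior variance was allowed to depend on intensity, it was called lower (adjusted p = 0.0327). The non-catalytic subunits of the complex, named here outside the naming rule, did not move alike. Eef1e1 rose 2.27-fold (adjusted p = 0.000969) and Aimp2 1.35-fold (adjusted p = 0.0214), whereas the log2 change of Aimp1 was -0.22 (adjusted p = 0.143).

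Among the 10 cytosolic genes outside the complex, 8 rose with B7-2. Yars, for tyrosine, read 263 and 291 in the anti-CD3 wells, 549 and 516 in the B7-2 wells and 303 and 357 in the BTNL2 wells. It rose 1.92-fold (log2 change 0.94 ± 0.11, adjusted p = 0.00155). Farsa, the alpha subunit of the phenylalanyl enzyme, read 313 and 329, then 577 and 575, then 487 and 476, and rose 1.795-fold (log2 change 0.84 ± 0.08, adjusted p = 0.000837). In these probe sets of both genes the anti-CD3 wells were lowest and the B7-2 wells highest, with no overlap. The dimmer Farsa probe sets were not called, with log2 changes of -0.29 and 0.30 (limma adjusted p = 0.108 and 0.0923 over all probe sets). With the mean of its probe sets the log2 change of Farsa was 0.28, and it was still called.

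Farsb, which encodes the beta subunit of the same enzyme, rose 1.665-fold (adjusted p = 0.00149) by its brightest probe set. Its other probe sets disagreed: one rose (log2 change 0.93), while the dimmest read 229.86 and 228 in the anti-CD3 wells and 73.9 and 69.5 in the B7-2 wells and fell (log2 change -1.67, limma adjusted p = 0.000179 over all probe sets). This was the only member with probe sets called in opposite directions in this comparison, and with the mean of its 3 probe sets the log2 change was -0.0045. Gars, for glycine in both compartments, read 2129 and 2208, then 3074 and 3098, then 2192 and 2283, and rose 1.42-fold (adjusted p = 0.00533). Hars (histidine, 1.67-fold), Nars (asparagine, 1.46-fold) and Aars (alanine, 1.45-fold) also rose. Sars, for serine (log2 change 0.18 ± 0.09, adjusted p = 0.197), and Vars, for valine (log2 change 0.23 ± 0.10, adjusted p = 0.13), did not pass the test, although for both genes the B7-2 arrays lay above the anti-CD3 arrays.

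Wars encodes the tryptophanyl enzyme and is known as a gene induced by interferon gamma. It read 229.69 and 292 in the anti-CD3 wells, 386 and 352 in the B7-2 wells and 395 and 344 in the BTNL2 wells. It rose 1.42-fold with B7-2 (log2 change 0.51 ± 0.14, adjusted p = 0.037), with the B7-2 arrays above both anti-CD3 arrays. The 2 anti-CD3 arrays differed more from each other for Wars than for the other cytosolic genes, as the plot of members by array shows. Tarsl2 read 151 and 154, then 242 and 239.55, then 168 and 183, and rose 1.58-fold (log2 change 0.66 ± 0.09, adjusted p = 0.00232).

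Mitochondrial genes moved less evenly. Mars2, for methionine, read 23.5 and 22.8 in the anti-CD3 wells, 38.7 and 44.2 in the B7-2 wells and 40.3 and 38.2 in the BTNL2 wells. It rose 1.79-fold (log2 change 0.84 ± 0.10, adjusted p = 0.00152). Iars2, for isoleucine, read 313 and 368, then 557 and 543, then 379 and 417, and rose 1.62-fold (log2 change 0.70 ± 0.11, adjusted p = 0.00434). Both genes had no overlap between anti-CD3 and B7-2 wells. Rars2, for arginine, read 347 and 354, then 519.52 and 504, then 512 and 506, and rose 1.46-fold (log2 change 0.55 ± 0.08, adjusted p = 0.00384).

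Lars2, for leucine, read 379 and 343 in the anti-CD3 wells, 472 and 512 in the B7-2 wells and 408 and 492 in the BTNL2 wells. It rose 1.365-fold (adjusted p = 0.0339), as did Aars2, for alanine, at 1.35-fold (adjusted p = 0.0256), which read 75.5 and 79.98, then 114 and 97, then 85 and 90.2. Fars2, for phenylalanine, rose 1.33-fold (log2 change 0.41 ± 0.12, adjusted p = 0.0494). The other 9 mitochondrial genes, Cars2, Ears2, Hars2, Nars2, Pars2, Sars2, Tars2, Vars2 and Wars2, did not pass. Their log2 changes ran from -0.19 for Tars2 to 0.38 for Ears2, and besides Tars2 those of Hars2 (-0.08) and Pars2 (-0.11) were below 0.

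Under every alternative that was run, 9 of the 14 cytosolic rises were called (Eprs, Farsa, Gars, Hars, Iars, Lars, Mars1, Nars and Yars), as were Tarsl2 and, among mitochondrial genes, Iars2, Mars2 and Rars2. Without the first anti-CD3 array, Aars (adjusted p = 0.0863), Kars (0.0558), Rars (0.188), Wars (0.181), Aars2 (0.13), Fars2 (0.138) and Lars2 (0.0753) were not called, and 3 mitochondrial genes were. Without the second, Rars (0.0538), Aars2 (0.076), Fars2 (0.181) and Lars2 (0.162) were not called, and again 3 mitochondrial genes were. Without the first B7-2 array, Rars (0.153), Wars (0.156), Aars2 (0.131), Fars2 (0.212) and Lars2 (0.0753) were not called, which left 3 mitochondrial genes. Without the second, Aars (0.076), Rars (0.0906), Wars (0.0804), Fars2 (0.0786) and Lars2 (0.146) were not called. Rars was also not called without either BTNL2 array (0.0514 each), or in a fit of only the 4 arrays compared (0.0514), and Fars2 was not called under a robust prior (0.052) or with each probe set tested (0.056).

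The letters TGATGNAA, the composite site bound by C/EBP and ATF family factors such as ATF4, were found in the promoters of 4 cytosolic genes. These promoters are shown. RefSeq windows of 250 bases before to 50 after an annotated start (GRCm38.p6) were found for 25 of the 33 members, not for Hars, Hars2, Lars, Nars, Pars2, Rars, Vars and Wars. Capitals mark matches on either strand, and the stretch printed runs from 150 bases before the start to 30 after it, 5′ to 3′.
Aars, chr8:111033692-111033871, plus strand: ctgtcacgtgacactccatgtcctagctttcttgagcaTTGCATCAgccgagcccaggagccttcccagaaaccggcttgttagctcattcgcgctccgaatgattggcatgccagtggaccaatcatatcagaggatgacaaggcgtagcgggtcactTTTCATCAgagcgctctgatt
Gars, chr6:55037851-55038030, plus strand: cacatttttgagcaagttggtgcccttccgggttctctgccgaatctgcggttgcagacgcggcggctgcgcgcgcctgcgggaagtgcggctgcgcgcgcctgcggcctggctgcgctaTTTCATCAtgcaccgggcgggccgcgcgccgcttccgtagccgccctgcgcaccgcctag
Iars, chr13:49681980-49682159, plus strand: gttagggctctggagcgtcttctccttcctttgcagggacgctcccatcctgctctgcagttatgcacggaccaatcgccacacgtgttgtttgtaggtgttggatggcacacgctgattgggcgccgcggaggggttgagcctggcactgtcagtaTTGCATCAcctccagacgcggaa
Yars, chr4:129189753-129189932, plus strand: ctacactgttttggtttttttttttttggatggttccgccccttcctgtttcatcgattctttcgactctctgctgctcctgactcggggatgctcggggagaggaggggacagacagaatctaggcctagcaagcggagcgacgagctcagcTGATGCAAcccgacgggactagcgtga
Matches began at positions -112 and 9 in Aars, -30 in Gars, 7 in Iars and 3 in Yars, counted from the annotated start as 0. These 4 were among 11 cytosolic genes with a window (36.4%), and 0 of 13 mitochondrial genes with a window had a match. Of 27025 genes with a window in the whole table, 4.51% had one, and of 27 genes of the amino acid response list described further on, 9 (33.3%). All 4 genes rose with B7-2, but so did cytosolic genes whose window lacked these letters, such as Eprs and Farsa. With BTNL2 against B7-2, Gars, Iars and Yars fell and Aars was not called. Eprs and Sars, whose windows lacked these letters, also fell. The E-box CACGTG was in 3 of 11 cytosolic windows (Aars, Farsb and Iars), in 1 of 13 mitochondrial ones (Ears2) and in 8.09% of all genes. TTCNNNGAA, of the STAT type, was in 2 cytosolic windows (Aars and Kars) and 1 mitochondrial window (Nars2) against 9.55%. No matches of these motifs overlapped one another. A match describes the letters and is not evidence of binding.

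The question of the second comparison is what BTNL2 did in the presence of B7-2. Lars, Sars, Yars and Iars fell furthest among the cytosolic genes and Fars2 among the mitochondrial ones. Of 17 cytosolic genes, 8 fell and 0 rose, with a median log2 change of -0.34, and at an unadjusted p under 0.05 the counts were 13 and 0. Of 15 mitochondrial genes, 3 fell and 0 rose (6 and 0 at an unadjusted p under 0.05), with a median of -0.14. Over all 17097 genes, 20.4% were called, 10.8% lower and 9.52% higher, with a median of -0.0114. This comparison and the first share the B7-2 arrays, so their values are given side by side and not set against each other.

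Lars and Sars fell furthest among cytosolic genes. Lars fell 1.84-fold (log2 change -0.88 ± 0.09, adjusted p = 0.000747), to 867 and 876 from 1593 and 1620.49. Sars, for serine, read 2285 and 2436 in the anti-CD3 wells, 2723 and 2638 in the B7-2 wells and 1503 and 1595 in the BTNL2 wells. It fell 1.73-fold (log2 change -0.79 ± 0.09, adjusted p = 0.00104), and its other probe set fell as well (log2 change -0.67, adjusted p = 0.00233 over all probe sets). Both BTNL2 arrays lay below all 4 other arrays for Sars, which sets it apart from Lars, whose BTNL2 arrays lay just above the anti-CD3 arrays.

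Yars fell 1.62-fold (log2 change -0.69 ± 0.11, adjusted p = 0.00556), Iars 1.53-fold (log2 change -0.61 ± 0.10, adjusted p = 0.00642) and Eprs 1.4-fold (log2 change -0.49 ± 0.09, adjusted p = 0.00785). Gars fell 1.38-fold (adjusted p = 0.0089), Nars 1.376-fold (adjusted p = 0.00981) and Vars 1.29-fold (adjusted p = 0.0357). Tarsl2 fell 1.375-fold (adjusted p = 0.0112). Farsa (log2 change -0.26, adjusted p = 0.0757), Hars (-0.30, 0.0686), Aars (-0.34, 0.0816) and Qars (-0.28, 0.0723) lay below the B7-2 arrays on both BTNL2 arrays without passing the test. Of the 4 probe sets of Qars, 1 that was not the brightest was called lower (log2 change -0.42, limma adjusted p = 0.0176 over all probe sets), and the others were not called. Kars, Farsb, Mars1 and Rars also had lower BTNL2 arrays, with log2 changes from -0.22 to -0.09.

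Wars stood apart. Mean intensity was 369 ± 23.7 with B7-2 and 369.6 ± 36.1 with BTNL2 added (SD, n = 2), a log2 change of 0.00 ± 0.14 (0.0012, adjusted p = 0.997). It was the only cytosolic gene whose B7-2 and BTNL2 arrays overlapped, and its other probe sets had log2 changes of -0.09 and 0.04. With this standard error, falls of the size of several other members cannot be told from no change.

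Fars2 fell furthest of all members. The mitochondrial phenylalanyl gene read 157 and 151 in the anti-CD3 wells, 217 and 193 in the B7-2 wells and 98.4 and 120.24 in the BTNL2 wells, a fall of 1.88-fold with BTNL2 (log2 change -0.91 ± 0.12, adjusted p = 0.00227). Both BTNL2 arrays were the lowest of the 6. Iars2 fell 1.38-fold (log2 change -0.47 ± 0.11, adjusted p = 0.0242). Wars2, for tryptophan, read 75.7 and 67.6, then 87.4 and 75.2, then 52.6 and 64.6, and fell 1.39-fold (log2 change -0.48 ± 0.13, adjusted p = 0.0481). This call was kept in 4 of 15 alternatives, with adjusted p = 0.0509 under a robust prior, 0.0514 after repeated quantile normalization, 0.053 with each probe set tested and 0.0692 in a fit of the 4 arrays compared.

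Vars2, for valine (log2 change -0.37 ± 0.11, adjusted p = 0.0527), and Cars2, for cysteine (log2 change -0.29 ± 0.10, adjusted p = 0.0801), came next. Vars2 read 129 and 120.36, then 125 and 135, then 108 and 92.8, and Cars2 235 and 258, then 295 and 314, then 242 and 257. For both, the BTNL2 arrays lay below the B7-2 arrays. Rars2 had a log2 change of -0.01 and Mars2 of -0.08, and their BTNL2 arrays overlapped the B7-2 arrays. Log2 changes above 0 were seen for Pars2, for proline (0.20, adjusted p = 0.316), Sars2 (0.09) and Tars2, for threonine (0.03), none past the test. In all, the BTNL2 and B7-2 arrays overlapped for 8 of 15 mitochondrial genes and 1 of 17 cytosolic genes. The share of all genes with such overlap was not counted.

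**Figure D2:**
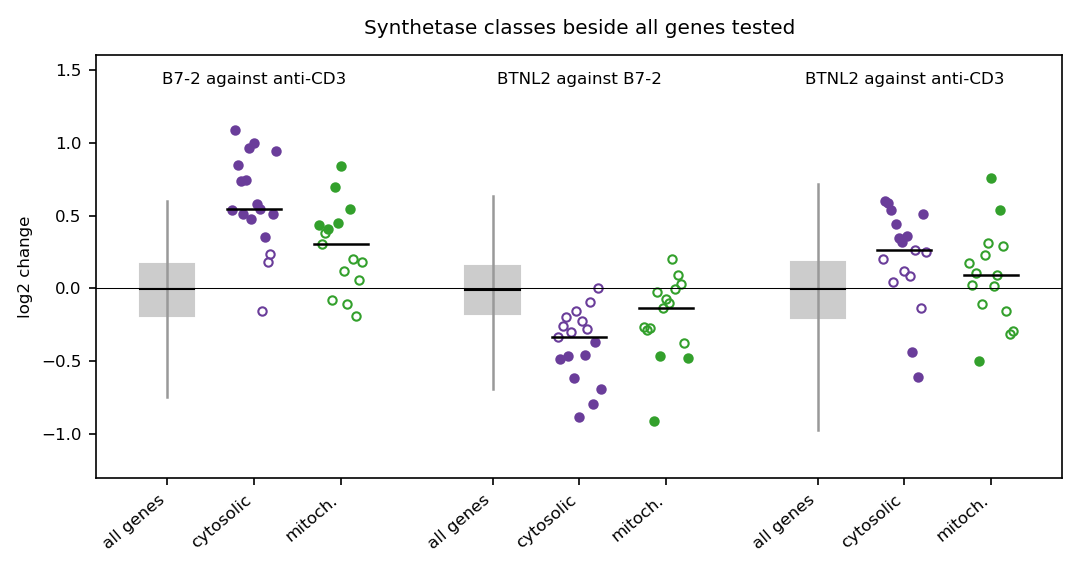
Log2 change of each cytosolic (purple) and mitochondrial (green) synthetase gene in the 3 comparisons, filled where the limma adjusted p was under 0.05, with a black line at the class median. The grey box spans the 25th to 75th and the grey line the 5th to 95th percentile of all 17097 genes; the cytosolic medians are 0.55, -0.34 and 0.26 and the mitochondrial ones 0.31, -0.14 and 0.09.

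Iars, Lars, Sars and Yars among cytosolic genes, and Fars2 among mitochondrial ones, were called lower under every alternative. Without the first B7-2 array, Eprs (adjusted p = 0.0515), Nars (0.0611), Tarsl2 (0.0601), Vars (0.144), Iars2 (0.106) and Wars2 (0.215) were not called, and 5 cytosolic and 1 mitochondrial genes were. Without the second, Tarsl2 (0.0513), Vars (0.106), Iars2 (0.0797) and Wars2 (0.0643) were not called, which left 1 mitochondrial gene. Without the first BTNL2 array, Gars (0.0501), Tarsl2 (0.0627), Vars (0.159), Iars2 (0.122) and Wars2 (0.214) were not called, with 1 mitochondrial gene left. Without either anti-CD3 array Vars (0.0638) and Wars2 (0.0692) were not called. When the prior variance was allowed to depend on intensity, 14 cytosolic and 5 mitochondrial genes were called lower, and with dim genes left out 5 mitochondrial genes were. The mitochondrial median of -0.14 was -0.26 without the second BTNL2 array, -0.09 (-0.0853) at its smallest without another array, and -0.08 with the mean of all probe sets, under which Wars2 was not called (adjusted p = 0.234).

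The third comparison sets the BTNL2 wells directly against anti-CD3 alone. Most cytosolic genes stayed above their anti-CD3 level or were not called. Of 17, 8 were higher and 2 lower, with a median log2 change of 0.26, and of 15 mitochondrial genes 2 were higher and 1 lower, with a median of 0.09. Among all genes 30.4% were called, 14.2% higher and 16.2% lower, with a median of -0.00456, so the mitochondrial counts lie near or below the share of all genes.

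Higher in both B7-2 and BTNL2 wells than with anti-CD3 alone were Eprs, Iars, Farsa, Farsb, Hars, Kars, Mars1 and Wars. By its brightest probe set, Eprs was 1.51-fold above anti-CD3 in the BTNL2 wells (log2 change 0.60 ± 0.09, adjusted p = 0.00197). Farsa was 1.5-fold above it (log2 change 0.59 ± 0.08, adjusted p = 0.00199). Wars was 1.42-fold above it (log2 change 0.51 ± 0.14, adjusted p = 0.0301). With the mean of its probe sets Farsa was not called (adjusted p = 0.188). The Farsb probe set that had fallen with B7-2 read 66.8 and 74.5 in the BTNL2 wells, again below anti-CD3 alone (log2 change -1.70), and the mean of the Farsb probe sets gave -0.19 where the brightest gave 0.54.

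Gars, Lars, Nars and Yars were called higher in the first comparison and lower in the second, which share the B7-2 arrays. In the BTNL2 wells they did not pass against anti-CD3, with log2 changes of 0.05, 0.12, 0.09 and 0.25. Tarsl2 did likewise (log2 change 0.20, adjusted p = 0.144). Sars ended 1.52-fold below anti-CD3 alone (log2 change -0.61 ± 0.09, adjusted p = 0.00217). Qars ended 1.35-fold below it (log2 change -0.44 ± 0.09, adjusted p = 0.00976), with 2639 and 2894 in the BTNL2 wells. Vars was the other cytosolic gene with a log2 change below 0 (-0.13, adjusted p = 0.368).

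Among mitochondrial genes, Mars2 (1.69-fold, log2 change 0.76 ± 0.10, adjusted p = 0.00132) and Rars2 (1.45-fold, log2 change 0.54 ± 0.08, adjusted p = 0.00266) stayed above anti-CD3 alone. Fars2 ended 1.416-fold below it (log2 change -0.50 ± 0.12, adjusted p = 0.0191). Hars2 (-0.11), Tars2 (-0.16), Vars2 (-0.32) and Wars2 (-0.30) also had log2 changes below 0, none past the test. In 8 of the 15 mitochondrial genes no comparison passed: Cars2, Ears2, Hars2, Nars2, Pars2, Sars2, Tars2 and Vars2.

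Eprs, Mars2 and Rars2 were called higher, and Sars lower, under every alternative. Without the first anti-CD3 array, Hars (adjusted p = 0.0739), Iars (0.192), Kars (0.144), Mars1 (0.0831), Wars (0.152), Qars (0.0594) and Fars2 (0.0941) were not called, which left 3 cytosolic genes higher, 1 lower and 0 mitochondrial genes lower. Without the second, Iars (0.0841), Kars (0.0756), Mars1 (0.0675) and Fars2 (0.068) were not called, which left 5 cytosolic genes higher and 0 mitochondrial genes lower. Without the first BTNL2 array, Kars (0.0718), Wars (0.149), Qars (0.0533) and Fars2 (0.089) were not called, and without the second, Hars (0.0568), Iars (0.183), Kars (0.11) and Mars1 (0.0687), which left 4 cytosolic genes higher. Without either B7-2 array, or in a fit of only the 4 arrays compared, Iars was not called (0.0657 each), nor after repeated quantile normalization (0.0609). The mitochondrial median was -0.02 without the second BTNL2 array and 0.21 without the first.

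Many amino acids have a cytosolic and a mitochondrial enzyme from separate genes, and 13 such pairs could be set side by side (Eprs stands in 2 of them, for glutamate and for proline). With B7-2 the cytosolic value lay above the mitochondrial one in 10 of 13 pairs and below it for methionine, arginine and serine. With BTNL2 against B7-2 the cytosolic value was the lower one in 10 of 13 pairs and the higher one for phenylalanine, valine and tryptophan.

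With BTNL2 against B7-2, the 4 widest gaps were those for serine, leucine, proline and phenylalanine. For serine, the log2 change was -0.79 ± 0.09 for Sars and 0.09 ± 0.11 for Sars2 (adjusted p = 0.633). For leucine it was -0.88 ± 0.09 for Lars and -0.14 ± 0.12 for Lars2, and for proline -0.49 ± 0.09 for Eprs and 0.20 ± 0.12 for Pars2. For phenylalanine it was -0.26 ± 0.08 for Farsa and -0.91 ± 0.12 for Fars2. For tryptophan it was 0.00 for Wars and -0.48 for Wars2. Differences between the genes of a pair were not tested.

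**Figure D3:**
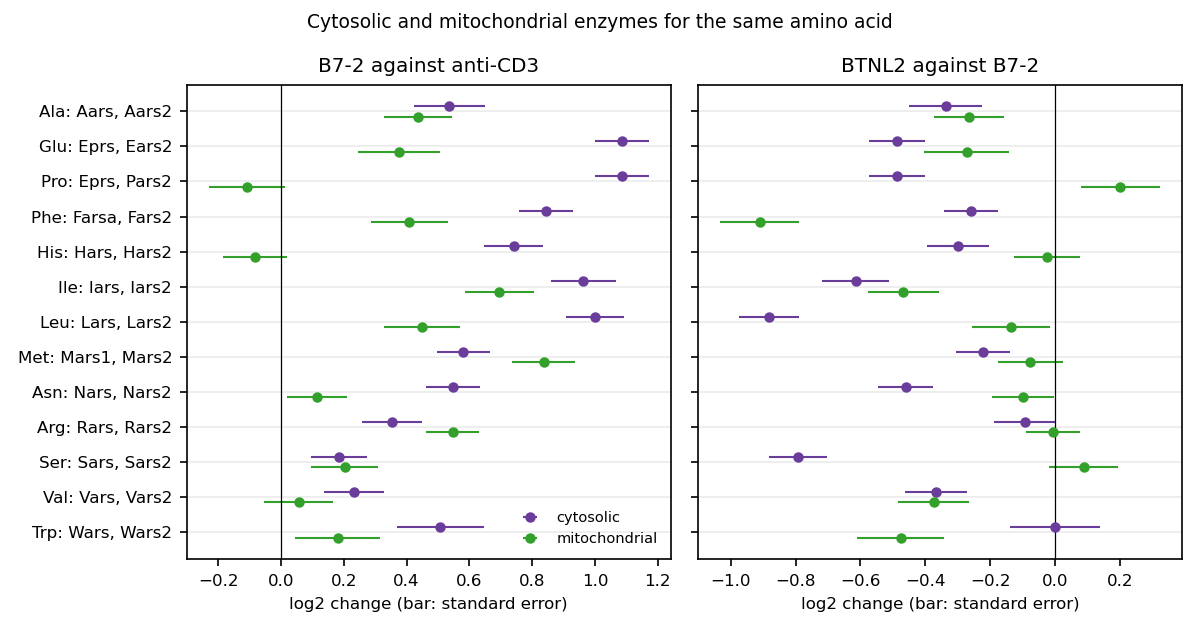
Log2 change of the cytosolic (purple) and mitochondrial (green) gene for the same amino acid, B7-2 against anti-CD3 on the left and BTNL2 against B7-2 on the right; points are limma estimates and bars standard errors. The cytosolic point lies to the right in 10 of 13 pairs on the left and to the left in 10 of 13 on the right.

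Other genes that serve tRNA were counted beside the same shares of all genes (11.2% higher and 13.3% lower with B7-2, 9.52% and 10.8% with BTNL2 against B7-2), and whether they differ from the synthetases was not tested. Of 42 genes for enzymes that modify tRNA, 25 rose and 1 fell with B7-2 (median log2 change 0.43), and 3 rose and 0 fell with BTNL2 against B7-2 (7.14% and 0%, median -0.01, with 6 and 5 at an unadjusted p under 0.05). The 3 that rose were Adat3, a subunit of a tRNA adenosine deaminase (1.52-fold), the methyltransferase gene Trmt10a (1.31-fold) and Trdmt1 (1.46-fold). Of 19 genes of tRNA processing and export, 7 rose and 0 fell with B7-2 (12 and 2 at an unadjusted p under 0.05), and 1 rose and 1 fell with BTNL2 (5.26% each way, below the shares of all genes). The gene that fell was Xpot, the nuclear export receptor of tRNA, with 531 and 496 in the anti-CD3 wells, 899 and 947 in the B7-2 wells and 641 and 632 in the BTNL2 wells, a fall of 1.45-fold (adjusted p = 0.00577). Tsen15, of the tRNA splicing endonuclease, rose 1.34-fold with BTNL2 (adjusted p = 0.03), and the log2 change of Rpp30, a subunit of RNase P, was 0.30 (adjusted p = 0.0523).

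A list of 17 genes held subunits of RNA polymerase III, which transcribes tRNA genes, together with its transcription factors and its repressor Maf1. Of these, 5 rose and 2 fell with B7-2 (29.4% and 11.8%), the latter being Maf1 and the factor gene Brf2, not polymerase subunits. With BTNL2, 2 rose and 1 fell (11.8% and 5.88%, near or below the shares of all genes). With BTNL2, Gtf3c6 (1.34-fold) and Polr3k (1.275-fold) rose and Polr3gl fell 1.669-fold. Of 12 partner genes of the synthetases, such as free editing enzymes and the subunits of mitochondrial transamidation, 3 rose and 1 fell with B7-2 and 0 rose and 1 fell with BTNL2 (0 and 2 at an unadjusted p under 0.05). The gene that fell was Gatb, a subunit of the mitochondrial amidotransferase that makes glutaminyl-tRNA (1.32-fold, adjusted p = 0.0483). Pstk had a log2 change of -0.26 (adjusted p = 0.0791) and Prorsd1 of 0.18 (adjusted p = 0.285). Of 8 mitochondrial translation factors, 4 rose with B7-2, and 1 fell with BTNL2, the recycling factor gene Gfm2 (1.49-fold, adjusted p = 0.00708), whereas Tufm had a log2 change of -0.23 and Guf1 of 0.26.

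The list of the amino acid response, which holds known ATF4 targets and no synthetase, moved in the direction of the cytosolic enzymes in both comparisons. Of 28 genes, 18 rose and 1 fell with B7-2 (median log2 change 0.62), and 22 fell and 0 rose with BTNL2 against B7-2 (median -0.73, with 24 and 0 at an unadjusted p under 0.05). A similar list had been seen to move in these arrays before this list was written, so it is not independent evidence. The mitochondrial enzyme gene Pck2 fell 8.045-fold, the stress gene Nupr1 5.59-fold and Asns, asparagine synthetase, 4.74-fold with BTNL2. Asns read 2837 and 2722 in the B7-2 wells and 549 and 626 in the BTNL2 wells. Against anti-CD3 alone, 13 of the 28 were lower and 5 higher in the BTNL2 wells, whereas 2 of 17 cytosolic synthetase genes were lower and 8 higher.

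Interferon gamma response genes, listed because of Wars, went the opposite way. Of 21, 12 fell and 0 rose with B7-2 (13 and 2 at an unadjusted p under 0.05), with a median of -0.40, and 13 rose and 1 fell with BTNL2, with a median of 0.61. With BTNL2 against B7-2 the GTPase genes Iigp1, Gbp7 and Gbp2 rose 5.15-fold, 5.36-fold and 2.8-fold. Wars rose in the first of these comparisons and had a log2 change of 0.00 in the second.

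**Figure D4:**
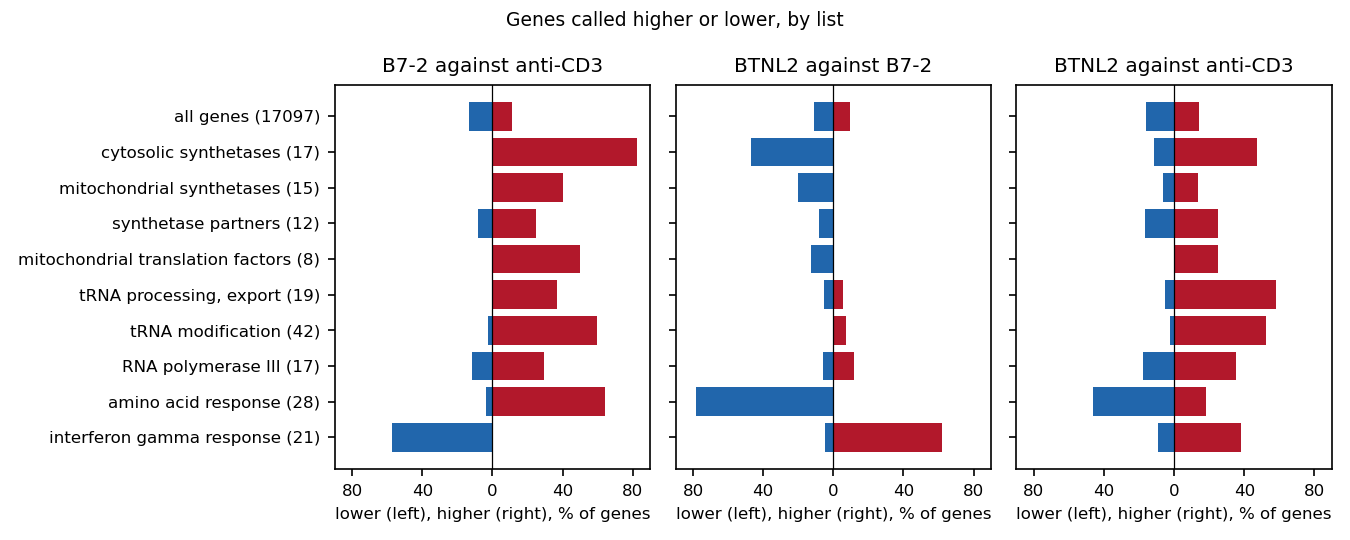
Percent of genes called higher (red, to the right) and lower (blue, to the left) at a limma adjusted p under 0.05 in the 3 comparisons, for all genes, both synthetase classes and 7 lists, with the number of genes in parentheses. Cytosolic synthetases and the amino acid response list extend to the right with B7-2 (82.4% and 64.3%) and to the left with BTNL2 against B7-2 (47.1% and 78.6%), while tRNA modification extends to the right with B7-2 (59.5%) and little with BTNL2 (7.14% higher).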

How the data were processed

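Labelled RNA of 6 cultures, amplified from 50 ng with a NuGen Ovation kit per the labels' protocols, was hybridised to 1 array each. The authors deposited probe set intensities on a linear scale, made with RMA per the submitters' processing notes; the sources used here do not give its version. A shift shared by most transcripts is removed by this normalization. All intensities were log2 transformed. Of 45141 probe sets, 28898 had 1 symbol, 551 several and 15588 none, and 104 were controls. With symbols updated through Entrez numbers (28689 probe sets, GRCm38.p6 gene table), the probe set of highest mean represented each of 17097 genes. All 33 members lay above the 40th percentile of all probe sets (12.4), with no filter applied.

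Comparisons used limma 3.58.1 (lmFit and eBayes, R 4.3.3) over all 6 arrays (3 residual and 4.02 prior degrees of freedom), two-sided, with Benjamini-Hochberg adjustment over 17097 genes, and called under 0.05. The procedure was tested on simulated data. A fold is the antilog of the log2 change, as larger over smaller group.

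The family, its lists and the naming rule (array values for the 5 members of each class with the largest changes in the first and second comparisons and for Wars, Tarsl2, Gars and Kars; of each other list the 3 genes of smallest p with BTNL2 against B7-2) were chosen with earlier results of these data known. Alternatives changed the variance prior, arrays in the fit, dim filter, scaling, probe sets, replicate block, class or membership, and left out each array. No set test was run.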

Additional observations from a re-analysis of the deposited data

How the results depend on the processing

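Calls above are those of 2 arrays per group, and leaving out 1 array leaves a lone array that is assumed to vary like the others. With B7-2 against anti-CD3, the count of mitochondrial genes higher was 3 to 7 without each array in turn, against 6, and cytosolic genes higher 10 to 13, against 14; 1 cytosolic gene was called lower with an intensity trend in the prior (Qars) and 1 when each probe set was tested (Farsb). With BTNL2 against B7-2, without each array in turn 5 to 8 cytosolic and 1 to 4 mitochondrial genes were lower, against 8 and 3; with an intensity trend these were 14 and 5, and without dim genes 5 mitochondrial genes were lower. With BTNL2 against anti-CD3, without each array in turn 3 to 7 cytosolic genes were higher and 1 to 2 lower, and 0 to 1 mitochondrial genes lower, against 8, 2 and 1; without dim genes 2 mitochondrial genes were lower. With the mean of its probe sets, the log2 change of Farsb turned to -0.0045 with B7-2 and to -0.19 with BTNL2 against anti-CD3. Without each array in turn, the mitochondrial median log2 change ran from -0.26 to -0.09 (-0.0853) with BTNL2 against B7-2 and from -0.02 to 0.21 with BTNL2 against anti-CD3. In the same comparisons the cytosolic median ran from -0.43 to -0.27, against -0.34, and from 0.18 to 0.35, against 0.26. The causes were not tested. All other counts of either class stayed within 1.5 times under the alternatives run, the 2 repeated scalings, the changes of class and the updated symbols among them.

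Duplicates share only a number: the deviations of same-numbered arrays correlated at -0.0641, -0.000967 and -0.0272 between groups. With the replicate block, 12 cytosolic and 5 mitochondrial genes rose with B7-2, and 7 and 2 fell with BTNL2 against B7-2; 6 calls were lost, of Rars, Wars and Fars2 with B7-2, Vars and Wars2 with BTNL2, and Kars with BTNL2 against anti-CD3, and no other call changed.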

Other observations

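Synthetases fall into 2 unrelated structural classes, which cut across the compartments. Of the 16 class I members (among them the enzymes for leucine, isoleucine, valine, methionine and arginine), 10 rose with B7-2 and 6 fell with BTNL2 against B7-2, with median log2 changes of 0.48 and -0.28. Of the 15 class II members (among them those for serine, lysine and phenylalanine), 9 rose and 4 fell, with medians of 0.44 and -0.26. Eprs, which holds an enzyme of each class, and Tarsl2 were not counted in either. Over all genes, 11.2% rose with B7-2 and 10.8% fell with BTNL2 against B7-2. Whether the classes differ was not tested.

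Within the cytosolic class, the 7 genes of the multisynthetase complex and the 10 outside it had median log2 changes of 0.58 and 0.54 with B7-2 and of -0.28 and -0.35 with BTNL2 against B7-2.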
